A study of Mus musculus with 3 samples.

Results

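Regulatory T cells are CD4 T cells that carry the transcription factor Foxp3 and restrain immune responses. A resting form keeps genes of naive and recirculating T cells, such as Tcf7, Lef1 and Ccr7, and an effector form in tissues and tumours makes suppressive molecules. Klrg1, an inhibitory lectin-type receptor that binds cadherins, and Il10, an anti-inflammatory cytokine, are commonly used to mark the effector form. The cells described here are T cells of mouse tumours with Foxp3 messenger RNA and with Klrg1 or Il10. They were 1222 of 1789 Foxp3 cells and of 25920 barcodes that passed quality limits in 3 single-cell libraries.

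The study took MC38 tumours, a mouse colon carcinoma line, at day 15 after 5 days of treatment, sorted cells stained for CD3, the T cell receptor complex, and sequenced them with a droplet kit that counts unique molecular identifiers (UMIs, 1 per captured transcript). There was 1 library for each of 3 groups, labelled PBS, mix and homo. PBS is phosphate-buffered saline, and the labels used here give neither the agents behind mix and homo nor the mouse strain, its age or the number of animals in a library. With 1 library per group, no test compares the groups, and differences between libraries are given with intervals that cover counting error only.

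A barcode counted as a Foxp3 cell when it held at least 1 UMI of Cd3d, Cd3e or Cd3g, at least 1 of Foxp3 and 0 of Cd8a and Cd8b1. It was a member when it also held at least 1 UMI of Klrg1 or Il10. The members were thus chosen by measured UMIs of these genes, whose levels are a description without a test. PBS held 594 members among 850 Foxp3 cells and mix 549 among 815. The homo library held 79 among 124, so each value from it rests on few cells.

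The libraries held 10351, 8461 and 8528 barcodes and 56427870, 49179708 and 65336646 UMIs in PBS, mix and homo. The homo library stood apart in depth and in mitochondrial reads. Its kept barcodes had a median of 7045 UMIs against 4854 in PBS and 5123 in mix, and 4.07% of its barcodes exceeded the mitochondrial limit against 0.251% and 0.307%. Among kept barcodes, 121 sequences occurred in both PBS and mix, 91 in PBS and homo, and 87 in mix and homo (131, 105 and 100 among all barcodes). Of these, 1 was a member in both PBS and mix.

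With all UMIs counted, Foxp3 cells with Klrg1 or Il10 made up most Foxp3 cells in every library, while their number per T cell was several fold lower in homo. Of the Foxp3 cells of PBS 69.9% were members (exact Clopper-Pearson 95% interval 66.7 to 73.0). The share was 67.4% for mix (64.0 to 70.6) and 63.7% for homo (54.6 to 72.2). These 3 intervals overlap. Counted over CD3 cells, members were 5.98% of PBS cells (5.52 to 6.47), 6.84% of mix cells (6.30 to 7.42) and 1.02% of homo cells (0.811 to 1.27). The PBS share was 5.85 times and that in mix 6.69 times the share in homo. All Foxp3 cells together were 8.56%, 10.2% and 1.61% of CD3 cells.

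Fewer members and more of the other T cells cannot be told apart in a share of sorted cells. The limit on CD8 genes also bears on it. With Cd8a and Cd8b1 UMIs allowed, the ratio to homo was 2.70 for PBS and 3.13 for mix. At 2000 UMIs drawn per cell, shallower cells were left out and the gates were applied anew to the drawn UMIs. Members were then 4.13%, 4.88% and 0.735% of CD3 cells and 59.5%, 57.1% and 54.1% of Foxp3 cells.

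**Figure D1:**
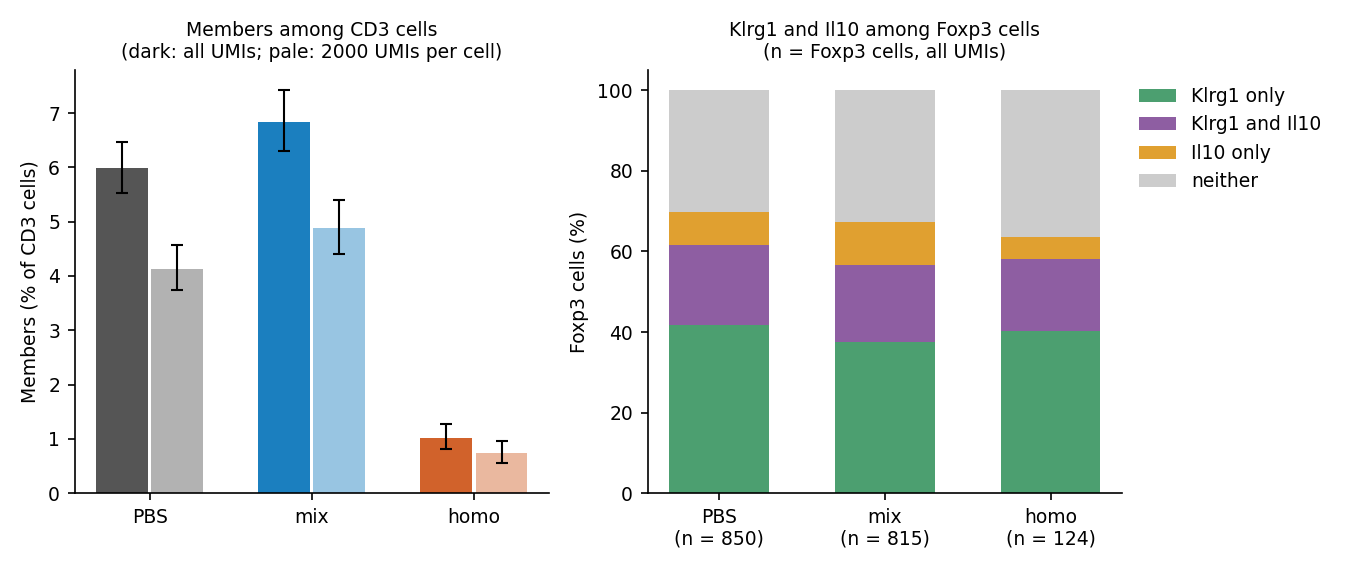
Left, members as a percent of CD3 cells in the PBS, mix and homo libraries, with all UMIs (dark) and at 2000 UMIs per cell (pale), and exact 95% intervals for counting error. Right, Foxp3 cells of each library split by their Klrg1 and Il10 UMIs; the members are the 3 coloured parts, and the homo library stands apart on the left (1.02% against 5.98% and 6.84%) but not on the right.

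Klrg1 was the more frequent of the 2 genes that define the cells. It was seen in 61.5%, 56.6% and 58.1% of Foxp3 cells in PBS, mix and homo, and Il10 in 28.2%, 29.8% and 23.4%. Both genes were seen in 19.9%, 19.0% and 17.7%. The members thus fell into 354, 306 and 50 cells with Klrg1 alone, 71, 88 and 7 with Il10 alone, and 169, 155 and 22 with both. Among Foxp3 cells with Klrg1, Il10 was seen in 32.3%, 33.6% and 30.6%, and among those without Klrg1 in 21.7%, 24.9% and 13.5%. That order was the same at 2000 UMIs per cell, gated anew (26.2% against 16.8%, 22.3% against 17.5% and 17.0% against 11.8%). At 1000 UMIs it turned in mix, at 12.2% against 13.2%, and stayed at 17.8% against 11.1% in PBS and 16.2% against 1.75% in homo.

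Summed over members, Klrg1 stood at 850, 757 and 954 CPM in PBS, mix and homo and Il10 at 205, 220 and 217 CPM. CPM are the UMIs of a gene scaled so that every profile has the same total. A single cell held up to 37 Klrg1 UMIs and up to 15 Il10 UMIs. Members just inside the limit, with 1 UMI of Klrg1 and Il10 together, were 136, 135 and 21 cells, or 22.9%, 24.6% and 26.6% of members. Just outside it were 256, 266 and 45 Foxp3 cells with 0. The median depth was 3320.5, 3629 and 3510 UMIs in members and 2685, 3021 and 2976 in the Foxp3 cells without both genes, so members were the deeper cells in each library.

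Free RNA in droplets can place UMIs in cells that do not make a gene, so the 2 genes were also counted in cells outside the gate. Here and in later shares of cells with a single named gene at 2000 UMIs, each cell kept the class that all its UMIs gave it. At 2000 UMIs per cell, Klrg1 was seen in 53.2%, 47.8% and 49.1% of Foxp3 cells in PBS, mix and homo. Its share was 20.7%, 21.0% and 17.7% among cells with Cd4 and no Foxp3, and 1.23%, 0.780% and 1.27% among CD8 cells. Il10 was seen in 21.5%, 20.8% and 14.8% of Foxp3 cells, 8.76%, 9.19% and 3.23% of Cd4 cells without Foxp3, and 0.193%, 0.290% and 0.169% of CD8 cells. Both genes were far above their share in CD8 cells of the same libraries and, by less, above that in Cd4 cells without Foxp3. The part of free RNA in these shares was not tested.

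Genes of the regulatory T cell lineage were present in members and in Foxp3 cells without Klrg1 and Il10, and 1 of those tested differed. The lineage list held 13 genes, of which 12 could be tested. In edgeR's quasi-likelihood test on UMIs summed per library and class, with Benjamini-Hochberg adjustment over 7817 genes, 0 were higher in members and 1, Nrp1, was lower. Foxp3 itself stood at 767, 775 and 743 CPM in members and 856, 795 and 783 CPM in the other Foxp3 cells, a log2 difference of -0.08 ± 0.09 (SE). Il2ra, the high-affinity IL-2 receptor chain, was 827, 878 and 632 CPM in members and 700, 815 and 436 CPM in the others (adjusted p = 0.25). Ikzf2, the transcription factor Helios, was 927, 1034 and 1446 CPM against 969, 1003 and 1201. Ctla4, an inhibitory receptor that takes CD80 and CD86 from other cells, was 1429, 1168 and 736 CPM against 1026, 1048 and 689 (adjusted p = 0.20). Cd4 was seen in 34.9%, 33.9% and 28.2% of members at 2000 UMIs and in 23.6%, 28.0% and 29.7% of the others, so most cells in this gate showed no Cd4 UMI at that depth.

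Against Foxp3 cells without Klrg1 and Il10, members had more RNA of Ccl3, Ccl4, Gzmb, Lag3 and Entpd1, and less of 10 of 15 tested genes of resting and recirculating cells. At an adjusted p under 0.05, 96 genes were higher in members (1.23% of those tested) and 67 were lower (0.857%). The median log2 difference over all genes tested was -0.0075. This contrast left out Klrg1 and Il10, used the library as a block and had 2 residual degrees of freedom. Since the summed profiles come from 3 libraries, the calls depended on which were used. Without mix, 1 gene was higher and 1 lower (Ccl3 and the gene model Gm2682, the latter named after its value was seen), and without homo 183 and 128. Without barcodes shared between libraries there were 74 and 55. DESeq2 called 15 and 8, all 23 among the calls of edgeR, and each of the 163 genes kept its direction in it.

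Ccl3 and Ccl4, chemokines that attract immune cells, were among the largest rises. Ccl3 stood at 330, 299 and 483 CPM in members of PBS, mix and homo and at 79.8, 62.3 and 188 CPM in the other Foxp3 cells. The lowest member value was above the highest of the others. The log2 difference was 2.02 ± 0.14 (SE; edgeR adjusted p = 1.29e-08). Ccl4 was 2778, 1621 and 2008 CPM in members against 465, 727 and 1201 CPM (log2 difference 1.56 ± 0.20, adjusted p = 0.00016), and the lowest member value was again above the highest of the others. Without PBS the Ccl4 difference was 0.97. These chemokines came from a minority of cells, with a Ccl3 UMI in 26.9%, 20.8% and 19.0% of members and a Ccl4 UMI in 37.2%, 31.9% and 30.4%. In homo, 47.8% of the Ccl4 UMIs of members lay in 1 cell. Without that cell's UMIs the homo level was 1049 CPM, under the 1201 CPM of the other homo cells, which was 736 CPM without their own highest cell. The 2 ranges of Ccl4 thus overlapped when that cell alone was left out. With the highest cell of every profile left out they stayed apart, at 2630, 1499 and 1049 CPM against 384, 416 and 736.

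Of 17 suppressive mediators tested, 5 were higher in members (Gzmb, Prf1, Entpd1, Lag3 and Fgl2) and 1 was lower (Nt5e). On this list 10 genes lay above 0 and 7 below, with a median of 0.34 against -0.0075 over all genes. Lag3, a receptor for MHC class II, was 676, 673 and 623 CPM in members and 409, 384 and 342 CPM in the others (log2 0.80 ± 0.10, edgeR adjusted p = 6.23e-05). Every member value exceeded every value of the other class. At 2000 UMIs per cell Lag3 was seen in 56.3%, 55.1% and 45.1% of members against 34.5%, 34.4% and 37.8%. Gzmb, a serine protease of cytotoxic granules, was 6849, 6959 and 3032 CPM against 4680, 3710 and 1401 (log2 0.84 ± 0.10). Homo was the lowest library in both classes. Prf1, which forms pores in target membranes, was 75.1, 48.0 and 77.8 CPM against 37.0, 20.1 and 88.3, so it was not higher in homo. Entpd1 encodes CD39, which breaks down extracellular ATP, and was higher by 0.70. Nt5e encodes CD73, which makes adenosine in the next step, and was lower by 0.80 on the log2 scale, with 50.5, 56.2 and 48.6 CPM in members against 86.7, 99.5 and 100.1. The cytokine subunit Ebi3 (log2 0.50, adjusted p = 0.063) and the checkpoint receptors Havcr2 (0.43, adjusted p = 0.068) and Pdcd1 (-0.09, adjusted p = 0.84) did not pass the test.

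Of 22 effector regulatory T cell genes, 4 were higher, 1 was lower, and the median was 0.24. The 4 were the transcription factors Maf (log2 0.59), Prdm1 (0.59) and Id2 (0.53) and the costimulatory receptor Icos (0.48). Icos was 1947, 1931 and 1673 CPM in members and 1527, 1379 and 1095 in the others. Maf was 564, 512 and 386 CPM against 409, 354 and 183, and Prdm1, the repressor Blimp-1, was 112, 105 and 97.3 CPM against 63.6, 87.4 and 41.2. For each of these 3 genes the member value was the higher in every library. Without mix the difference in Prdm1 was 0.91. The lower gene was Cd83 (-1.05), a surface protein of activated lymphocytes. Tigit (log2 0.34, adjusted p = 0.066), the chemokine receptor Ccr8 (0.34, adjusted p = 0.11) and the TNF receptor family members Tnfrsf4 (0.26, adjusted p = 0.17), Tnfrsf9 (0.24, adjusted p = 0.29) and Tnfrsf18 (0.19, adjusted p = 0.43) lay above 0 without passing the test. Gata3 (-0.22) and the integrin chain Itgae (0.06) did not pass either. On the list of 11 tested tissue repair genes, the growth factor Areg was higher (log2 0.72, with 230, 127 and 123 CPM in members against 125, 93.5 and 70.7), and so was Fgl2. Il18r1, a chain of the IL-18 receptor, was lower (-1.39), at 17.1, 20.1 and 38.9 CPM against 48.5, 57.3 and 64.8. Il1rl1, the IL-33 receptor, stayed at 8.3, 3.7 and 48.6 CPM in members and 3.5, 17.1 and 35.3 in the others.

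**Figure D2:**
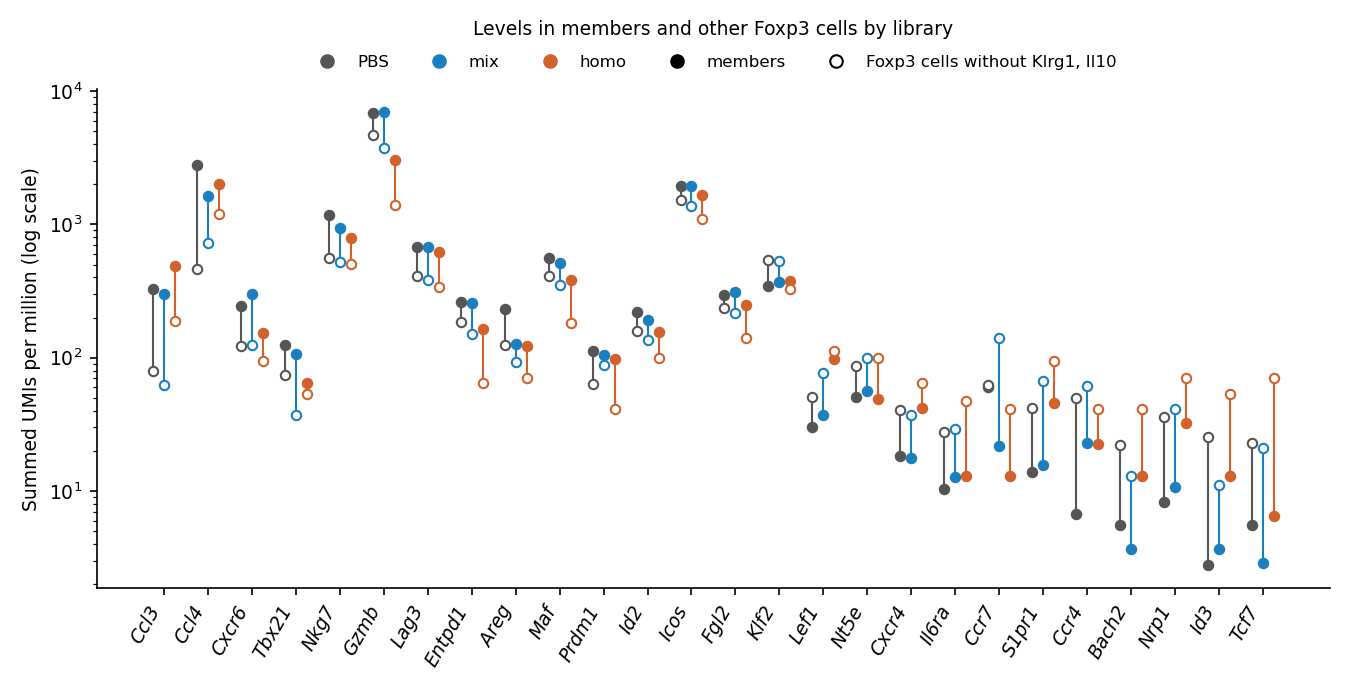
Summed CPM (log axis) of 26 genes in members (filled) and in Foxp3 cells without Klrg1 and Il10 (open), 1 pair per library. The line joins the 2 classes of a library; chemokine, cytotoxic and effector genes on the left lie higher in members, and genes of resting cells on the right lie lower, with Klf2 in homo (373 against 330 CPM) the other way.

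Genes of resting and recirculating T cells were lower as a group. Of 15 tested genes on that list of 17, 10 were lower in members and 0 were higher, with a median of -0.78. Tcf7, the transcription factor TCF-1 of naive and memory T cells, was 5.6, 2.9 and 6.5 CPM in members and 23.1, 21.1 and 70.7 in the other Foxp3 cells (log2 -2.51 ± 0.37, edgeR adjusted p = 0.00044). It was seen in 8 of 594, 5 of 549 and 1 of 79 members, so its level in members rests on few cells. Id3 (-2.33) and Bach2 (-1.84), repressors of effector differentiation, were lower, as were Lef1 (-0.78), Foxo1 (-0.49) and Klf2 (-0.46). S1pr1, which leads T cells out of tissues, was 13.9, 15.6 and 45.4 CPM against 41.6, 67.3 and 94.2 (log2 -1.73 ± 0.21, adjusted p = 6.57e-05). Il6ra (-1.33) and Ly6c1 (-0.81) were lower too. Ccr7, which guides cells to lymph nodes, was 60.4, 21.7 and 12.97 CPM against 62.4, 142 and 41.2. Its difference of -1.34 was -0.16 without mix and -2.59 without PBS, and in PBS 1 cell held 34.2% of the UMIs of members.

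Other genes with large falls were not on that list. St6gal1, a sialyltransferase, had the largest fall by the rule for named genes (2.8, 3.3 and 25.9 CPM in members against 27.7, 27.1 and 76.5, log2 -2.71 ± 0.36). Smad3, a transducer of TGF-beta signals, and the transcription factor Aff3 lay at -2.41 and -2.40. Klf3, a transcription factor too, was 8.3, 9.9 and 48.6 CPM against 43.9, 50.2 and 70.7. Nrp1, a receptor that is high on regulatory T cells of thymic origin, was 8.3, 10.7 and 32.4 CPM against 35.8, 41.2 and 70.7 (log2 -1.84 ± 0.26, edgeR adjusted p = 0.00040). The actin regulator Evl (-2.12), Pdlim1 (-1.99, and -1.25 without mix), the TNF receptor family member Tnfrsf25 (-1.57), the adhesion receptor Cd96 (-1.51) and the glycosyltransferase Mgat5 (-1.43) completed the 15 largest falls that were shared by all libraries, with Ccr4 below.

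The homing receptors moved in different directions. Of 22 tested genes of migration, 3 were higher and 5 were lower, with a median of 0.054. Cxcr6, the receptor for Cxcl16, was 244, 300 and 152 CPM in members and 121, 125 and 94.2 in the others (log2 1.13 ± 0.12, edgeR adjusted p = 1.7e-05). The chemokine receptor Ccr2 (0.46, and 0.20 without mix) was higher too. Ccr4 was 6.8, 23.0 and 22.7 CPM against 49.7, 61.3 and 41.2 (log2 -1.80 ± 0.26). Cxcr4 (-1.02), Itgb1 (-0.95) and Cxcr3 (-0.40) were lower as well, beside S1pr1. Outside the list, the leukotriene B4 receptor Ltb4r1 was 46.5, 50.1 and 130 CPM against 23.1, 19.1 and 41.2 (log2 1.29 ± 0.21).

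Of 12 genes of helper lineages, 2 were higher and 2 were lower. Tbx21, the T helper 1 factor T-bet, was 124, 107 and 64.9 CPM in members and 74.0, 37.2 and 53.0 in the others (log2 1.04 ± 0.17, edgeR adjusted p = 0.0015). Il12rb1 was higher by 0.69. Cxcr3, a common target of T-bet, and Stat4, which carries IL-12 signals, were lower, by 0.40 and 0.73 on the log2 scale. Of 17 costimulatory genes, Icos and Tnfrsf8 (1.16) were higher and Tnfrsf25 and Slamf6 (-0.74, and -0.46 without mix) were lower.

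The growth and signalling lists had few calls. Of 29 proliferation genes 1 was higher, the replication helicase subunit Mcm5 (0.94), and the median was 0.061. At 2000 UMIs per cell Mcm5 was at -0.21. Mki67 stood at 67.1, 70.2 and 84.3 CPM in members and 103, 44.2 and 82.4 in the others (log2 -0.03, adjusted p = 0.99). Of 22 genes of the IL-2 receptor and its signalling, 1 was higher and 2 were lower (Stat5b at -0.64 and Cd83), and Il2rb lay at 0.13 (adjusted p = 0.64). Of 16 genes linked to IL-10 control and signalling, Maf and Prdm1 were higher and 0 were lower. Among 26 interferon-stimulated genes Ifit3 was lower (-0.47, and -0.71 without mix). Among 21 early response and stress genes Egr1 was higher (0.55, and 0.33 without PBS). Among 16 glycolysis genes 0 passed in either direction, with 14 above 0. The remaining large rises were in Anxa1 (1.70), Mt3 (1.22), Paqr4 (1.12), the DNA ligase Lig1 (1.11) and Arnt2 (1.01). The uridine phosphorylase Upp1 was 79.5, 79.6 and 51.9 CPM against 34.7, 45.2 and 29.4. Anxa1 was at 12.3, 16.0 and 16.2 CPM in members and 3.5, 5.0 and 5.9 in the others.

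Markers of other cell types were summed in the same profiles. The list of 21 CD8 and cytotoxic markers had 17, 15 and 14 genes detected in members of PBS, mix and homo and 17, 16 and 13 in the others. It summed to 12649, 11149 and 7975 CPM in members and 7018, 6125 and 4946 CPM in the others. Of these, 6 of 12 tested genes were higher, all named above except Nkg7 and Cst7 (0.61). Nkg7, a protein of cytotoxic granules, was 1173, 941 and 795 CPM against 561, 524 and 501. Cd8a and Cd8b1 were at 0 by the gate, and Eomes was at 0 in both classes of every library. Gzmb was seen in 89.3%, 88.0% and 77.8% of Foxp3 cells at 2000 UMIs and in 81.5%, 79.1% and 62.7% of CD8 cells. The part of free RNA or of attached CD8 cells in the cytotoxic genes was not tested.

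MHC class II genes, which T cells of mice hardly make, were higher in members as well. H2-Ab1 was 36.5, 100.1 and 12.97 CPM in members and 28.9, 4.0 and 0 in the others (log2 2.15 ± 0.43, edgeR adjusted p = 0.0074). Without mix the difference was 0.48. The H2-Ab1 UMIs of members lay in 19, 19 and 3 cells, and in mix 1 cell held 50.4% of them. H2-Eb1 differed by 1.28, by 0.55 without mix, and by -0.04 once cells with UMIs of 2 or more of 13 macrophage and MHC class II genes were left out. Cd74 (0.61, and 0.31 without mix) and the adaptor Tyrobp (1.14), found in myeloid and NK cells, passed as well. The 14 dendritic markers summed to 754, 1095 and 370 CPM in members against 690, 545 and 236 CPM, with 13, 12 and 6 genes detected against 7, 6 and 5. Xcr1 and Clec9a, which define a dendritic subset, were at 0 in the others of every library and in homo members. In PBS members Clec9a was 2 UMIs in 1 cell. Member profiles summed to more UMIs than those of the others in every library, which favours detection of genes near 0 in members. The 16 macrophage markers summed to 592, 487 and 347 CPM against 522, 614 and 359, with Adgre1 at 0 throughout and 15, 15 and 6 genes detected against 13, 13 and 4. Without the cells that held such UMIs, 89 genes were higher and 68 lower.

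The difference in depth between the classes was handled in 2 ways. When each other Foxp3 cell was set against the member nearest to it in UMIs, 80 genes were higher and 74 lower, and 101 of the 163 calls were made again. For fits and ratios at 2000 UMIs per cell, the gate was applied anew to the drawn UMIs. Members could thus become other Foxp3 cells, Foxp3 cells could leave, and barcodes could enter where no CD8 gene UMI was drawn. The classes there are not the same cells as above. The counts were 106 and 107, with 69 calls shared. Among the genes above, Ccl3, Ccl4, Cxcr6, Nkg7, Lag3, Gzmb, Icos, Maf, Entpd1, S1pr1, Tcf7, Nrp1, Ccr4 and St6gal1 passed in both.

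The members also differed among themselves. In PBS and mix, cells with Klrg1 alone were compared with cells with Il10 alone; homo held 7 of the latter and was left out. With the library as a block and 1 residual degree of freedom, 48 of 7559 genes were higher in Klrg1 cells (0.635%) and 47 were higher in Il10 cells (0.622%). DESeq2 called 4 of these, with Ccl4, Izumo1r and Lag3 higher in Il10 cells and the ribosomal protein gene Rps2 higher in Klrg1 cells. Of the 95 calls, 14 were made again at 2000 UMIs per cell, among them Ccl4, Lag3, Izumo1r, Areg, Itgb8, Nr4a1, Tnfrsf1b and Cd81. The test cannot be run without 1 library, since no residual degree of freedom would remain.

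Il10 cells had more RNA of Ccl3, Ccl4, Lag3, Izumo1r and Itgb8. Ccl4 was 3135 and 1831 CPM in Il10 cells of PBS and mix and 1239 and 585 CPM in Klrg1 cells (log2 of Klrg1 over Il10 cells -1.47 ± 0.09, edgeR adjusted p = 1.26e-18). Of the Ccl4 UMIs of Il10 cells, 18.3% in PBS and 22.6% in mix lay in 1 cell. Without the highest cell of each subset the levels were 2564 and 1417 CPM against 1115 and 496. Ccl3 differed by -1.04, and did not pass at 2000 UMIs per cell (-0.55, edgeR adjusted p = 0.43). Lag3 was 1016 and 1110 CPM against 497 and 462 (-1.14 ± 0.11, adjusted p = 7.7e-11). Izumo1r, folate receptor 4 of regulatory T cells, was 538 and 566 CPM against 216 and 221 (-1.33 ± 0.14, adjusted p = 1.08e-09). Itgb8, an integrin chain that releases active TGF-beta, was 193 and 196 CPM against 62.5 and 98.3 (-1.26 ± 0.20). In each of these genes the 2 values of one subset did not overlap those of the other. The genes were picked by the test, and genes without overlap were not counted over all genes, so this adds no support. The growth factor Areg passed as well (-1.11), at 398 and 155 CPM against 165 and 82.7. In mix 77.4% of the Areg UMIs of Il10 cells came from 1 cell. Without the highest cell of each subset, mix had 35.04 CPM in Il10 cells and 64.8 in Klrg1 cells, so its direction turned, while PBS had 307 and 148.

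On the list of 23 early response and stress genes tested, 3 were higher in Il10 cells and 0 in Klrg1 cells, with a median of -0.13. These were the stimulation-induced factors Nr4a1 (-0.69), Nr4a3 (-1.45) and Egr1 (-0.81). The cytokine signalling inhibitor Socs3 (-1.30), the kinase Pim1 (-0.39), the costimulatory receptor Cd28 (-0.57), Tnfrsf1b (-0.69), Tigit (-0.36), Ikzf3 (-0.59) and Nfkbia (-0.44) were higher in Il10 cells too. Ramp3 (-2.67), the signalling inhibitor Spry1 (-1.72), Angptl2 (-1.64), Alg9 (-1.48), Mkrn2 (-1.44) and Dclre1c (-1.34) had the other large differences. Ramp3 rested on 12 and 1 UMIs in Klrg1 cells and 4 and 13 in Il10 cells. Icos (-0.29, adjusted p = 0.053) and Maf (-0.40, adjusted p = 0.077) missed the threshold, and Prdm1 was at -0.43 (adjusted p = 0.45).

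Among genes higher in Klrg1 cells, Tk1, the thymidine kinase of dividing cells, had 70 and 47 UMIs in Klrg1 cells and 4 and 2 in Il10 cells (log2 1.98 ± 0.50). Of 28 proliferation genes this 1 passed and 25 lay above 0, with a median of 0.52 against -0.0011 over all genes. Mki67 was an exception, at -0.11. Phgdh, the first enzyme of serine synthesis, was 126 and 88.6 CPM against 34.1 and 40.9 (1.48 ± 0.29), but at 2000 UMIs per cell its difference was 0.44 (adjusted p = 0.90). Srm (2.62), Mt3 (2.21), Hyou1 (1.96), Dpp3 (1.54), the chaperonin Hspd1 (1.12) and the tetraspanin Cd81 (1.08) were higher as well. Tspan17 had 45 UMIs in Klrg1 cells and 0 in Il10 cells, at least 3.13-fold higher against a floor of 3 UMIs over both libraries. Ccr7 passed at 3.64, with 125 UMIs in 15 Klrg1 cells of PBS, of which 41.6% lay in 1 cell. Foxp3 (-0.03), Il2ra (-0.10), Gzmb (0.10) and Ctla4 (-0.09) did not pass.

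Cells with both genes were not part of that test. Their Ccl4 level was 6154, 3377 and 5392 CPM in PBS, mix and homo, above both single-gene subsets of PBS and mix. In homo 1 cell held 54.3% of these UMIs, and the level was 2471 CPM without them. With Klrg1 alone Ccl4 was 1239, 585 and 285 CPM, against 465, 727 and 1201 with neither gene, so it was higher in PBS only. Without the highest cell of each subset the mix values were 496 and 416 CPM, and those of homo 186 and 736. Ccl3 with Klrg1 alone was 160, 141 and 54.7 CPM against 79.8, 62.3 and 188 with neither. Gzmb in cells with both genes was 8905, 8225 and 3978 CPM. It was 6186, 6383 and 2682 CPM with Klrg1 alone and 4680, 3710 and 1401 with neither. Lag3 was 953, 851 and 831 CPM in cells with both genes, against 1016 and 1110 CPM in Il10 cells of PBS and mix. The intervals of these subsets overlapped in PBS but not in mix. With Klrg1 alone Lag3 was 497, 462 and 460 CPM, above the 409, 384 and 342 CPM of cells with neither. Here the intervals overlapped in homo but not in PBS and mix. Izumo1r was 319, 371 and 435 CPM in cells with both and 341, 359 and 501 CPM in cells with neither, and in PBS and mix its lowest value was that of Klrg1 cells. In homo the level with Klrg1 alone was 525 CPM (426 to 642), the highest of the 3 homo subsets compared. Cells with both genes had median depths of 3431 and 3957 UMIs in PBS and mix, deeper than either single-gene subset.

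**Figure D3:**
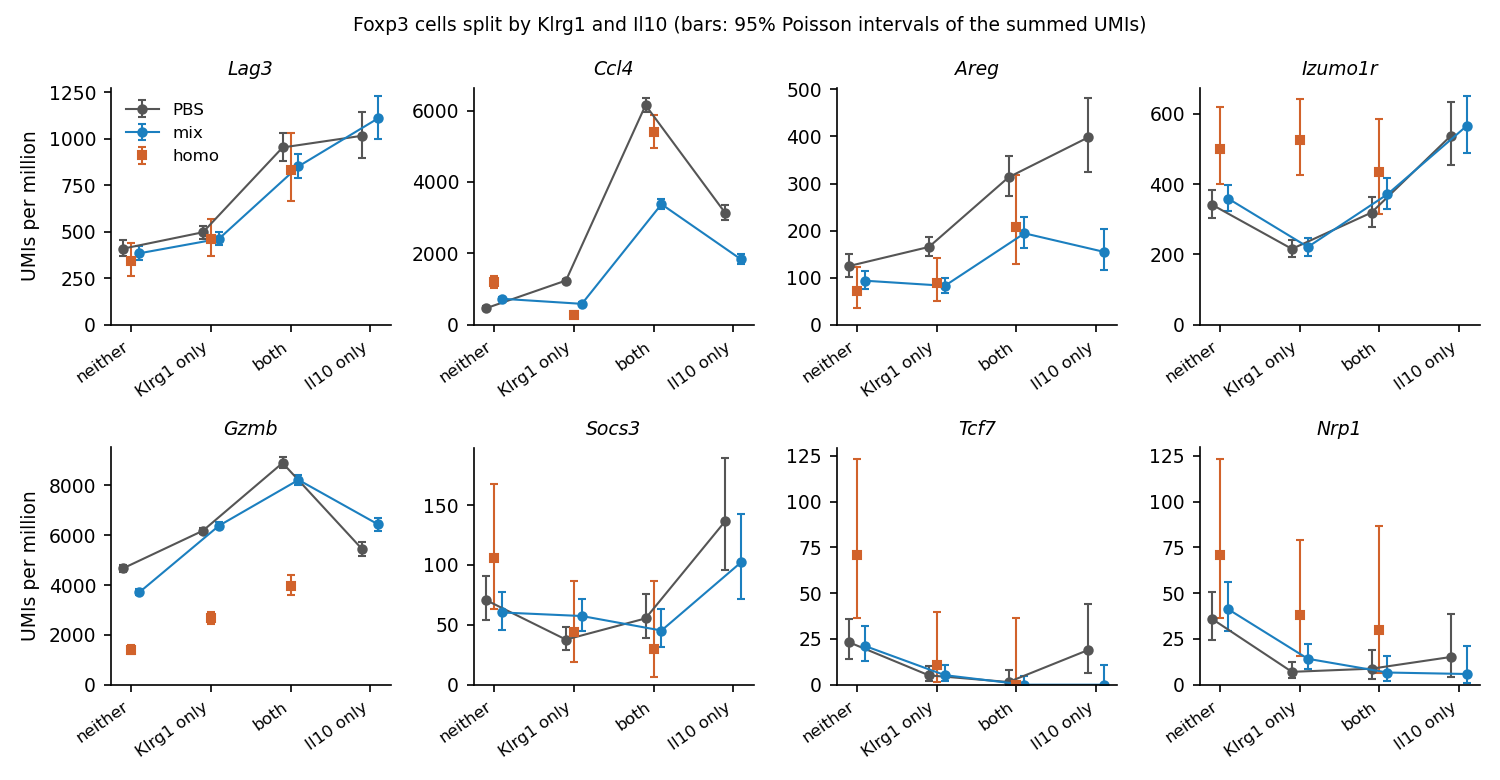
Levels of 8 genes in Foxp3 cells with neither gene, Klrg1 only, both, or Il10 only, in CPM with exact 95% Poisson intervals for counting error; homo has no point for Il10 only, where it held 7 cells. Lag3 is highest where Il10 is present, Izumo1r falls to its lowest in Klrg1-only cells of PBS and mix, and Ccl4 and Gzmb peak in cells with both genes. Tcf7 and Nrp1 have their highest values in cells with neither gene. Their intervals overlap those of Il10-only cells of PBS (Tcf7 19.0 against 23.1 CPM) and of Klrg1-only cells of homo. For Nrp1 they also overlap in homo cells with both genes (29.7 against 70.7 CPM).

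Between libraries, members of PBS and mix were much alike, and members of homo had lower levels of interferon-stimulated and glycolysis genes and of Gzmb than both. Ratios cover genes that reach 100 CPM in 1 or both libraries of a pair, and a gene counts as higher or lower from a 2-fold ratio on. A gene can thus enter a pair only through the library where it is high. From PBS to homo 32 of 1903 genes were higher (1.68%) and 32 were lower (1.68%). From PBS to mix 4 of 1734 were higher (0.231%) and 0 were lower (0%). From mix to homo 19 of 1902 were higher (0.999%) and 37 lower (1.95%). The first and last share the homo members, and the first and second share the PBS members. With 79 cells, ratios to homo carry wider counting error, which alone can bring low genes past 2-fold.

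Interferon-stimulated genes were lower in homo as a group. All 24 genes counted were lower in homo than in PBS members, 3 of them at least 2-fold (Isg15, Ifit3 and Irf7), with a median log2 ratio of -0.48 against 0.02 over all genes. Isg15, a ubiquitin-like modifier, was 1624 CPM in PBS, 1732 in mix and 587 in homo. Its log2 ratio of homo to PBS was -1.47 (exact conditional 95% interval -1.69 to -1.25) in members and -2.10 (-2.46 to -1.75) in the other Foxp3 cells. Irf7, a transcription factor that amplifies interferon, was 975, 1050 and 428 CPM, with a ratio of -1.19 in members and -2.06 in the others. The median of the list in the other Foxp3 cells was -1.15. Against mix, all 25 genes were lower in homo and 9 were at least 2-fold lower, with a median of -0.81. From PBS to mix the median was 0.20, with 23 of 25 genes above 0. Ifit3b was the 1 gene past 2-fold, at 59.2 CPM in PBS and 129 in mix. It reached the minimum of 100 CPM in mix only, so it entered both lists of 25 through the library where it is high.

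Glycolysis genes followed the same order for homo. All 11 counted were lower in homo than in PBS members and 5 were at least 2-fold lower, with a median of -0.85 in members and -0.58 in the other Foxp3 cells. Gapdh was 1821, 2633 and 811 CPM in the order PBS, mix and homo. Its ratio of homo to PBS was -1.17 (-1.36 to -0.98). Tpi1 was 521, 405 and 204 CPM (-1.35), Eno1 588, 695 and 240 CPM (-1.29), and Pgk1 529, 452 and 237 CPM (-1.16). The lactate exporter Slc16a3 was the fifth. Ldha, which makes lactate, was at 1727, 1451 and 1070 CPM (-0.69). Homo was the lowest library for each of these genes.

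Effector molecules differed gene by gene. Gzmb stood at 6849 CPM in PBS members, 6959 in mix and 3032 in homo. Its log2 ratio of homo to PBS was -1.18 (-1.27 to -1.08) in members and -1.74 in the other Foxp3 cells. The share of CD8 cells with a Gzmb UMI, given above, was also lowest in homo, and the part of free RNA was not tested. Ccr8 was 398, 332 and 198 CPM (log2 of homo to PBS -1.01, -1.40 to -0.63), Ctla4 1429, 1168 and 736 CPM (-0.96, -1.16 to -0.76) and Tnfrsf9 2332, 2183 and 1395 CPM (-0.74, -0.89 to -0.60). Tnfrsf4 (-0.60), Tnfrsf18 (-0.57), Maf (-0.55), Il2ra (-0.39), Il2rb (-0.28) and Icos (-0.22) were lower with intervals that leave out 0. Foxp3 (-0.05), Lag3 (-0.12), Tigit (0.12), Pdcd1 (0.03), Prdm1 (-0.21) and Cd4 (-0.28) had intervals that include 0. Ikzf2 was higher in homo, at 1446 CPM against 927 (log2 0.64, 0.49 to 0.79), and so were Ebi3 (0.65) and Itgae (0.55). The STAT5 target Cish was lower in homo members at 149 CPM against 278 in PBS and 311 in mix.

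The largest ratios of homo to PBS lay in other genes. Penk, which encodes the precursor of enkephalins, was 332 CPM in PBS members, 247 in mix and 45.4 in homo (log2 -2.87, -3.75 to -2.12), and -2.94 in the other Foxp3 cells. Ly6c2 was 253, 183 and 68.1 CPM (-1.89, -2.60 to -1.27), with -0.58 in the others. In the opposite direction, Ccs, the copper chaperone of superoxide dismutase, was 52.8 CPM in PBS and 185 in homo (1.81, 1.33 to 2.26). Emb (1.69), Ltb4r1 (1.48), Prkcq (1.36), the kinase Stk10 (1.17) and Arhgap15 (1.06) were higher in homo members, with other Foxp3 cells at 0.16, 0.83, 0.15, -0.31 and 0.46. Single cells decided a few ratios. In homo 1 cell held 79.6% of the Gphn UMIs of members and 64.5% of those of Lars2, and the log2 ratios of 1.98 and 1.13 were -0.23 and -0.27 without the highest cell of each library. For Ccl4 the ratio of -0.47 was -1.33 without it.

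**Figure D4:**
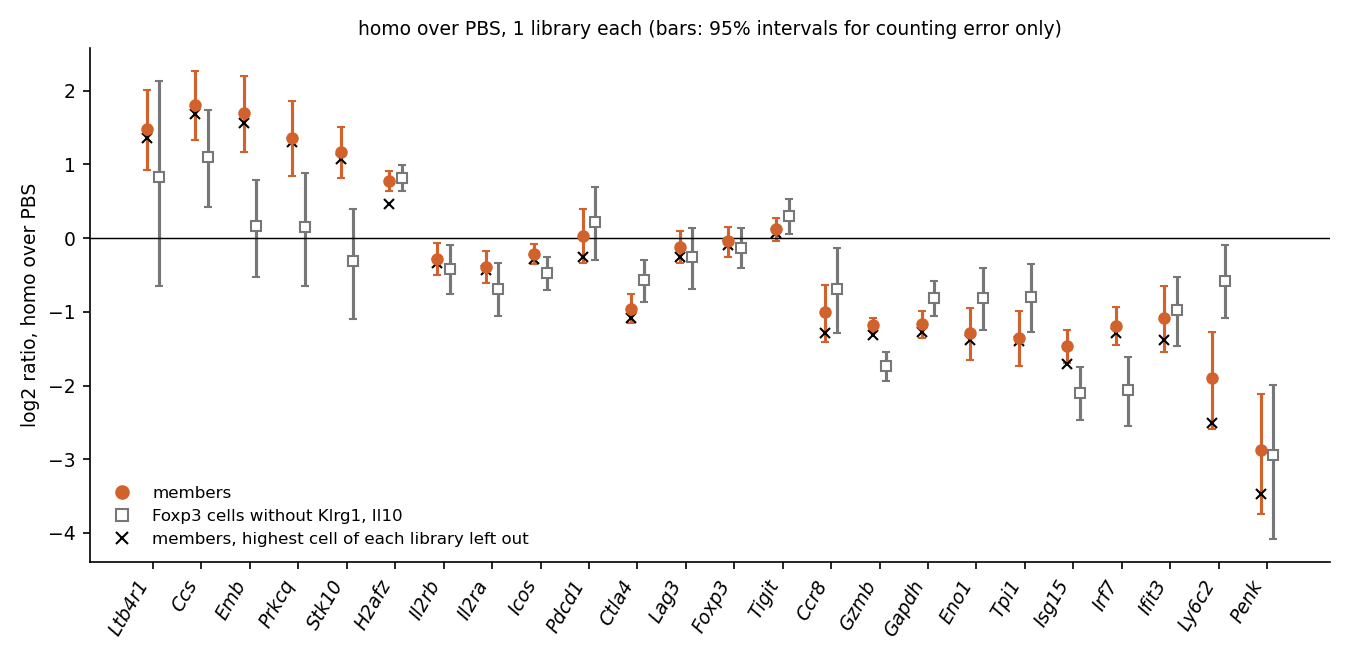
Log2 ratio of homo to PBS, 1 library each, for 24 genes in members (filled) and in Foxp3 cells without Klrg1 and Il10 (open squares), with exact conditional 95% intervals for counting error; crosses give members without the cell of each library with most UMIs of the gene. Foxp3, Lag3 and Tigit lie near 0 in members, and Ccr8, Gzmb, Gapdh, Eno1, Tpi1, Isg15, Irf7, Ifit3, Ly6c2 and Penk lie below -1. The glycolysis and interferon-stimulated genes drawn are from those past 2-fold, which were 5 of 11 and 3 of 24 on their lists.

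From PBS to mix, no gene of the members was 2-fold lower. By the interval end nearest 0, the lowest were Ccl4, at 2778 CPM in PBS and 1621 in mix (log2 -0.78, -0.83 to -0.72), Areg, at 230 and 127 CPM (-0.85, -1.06 to -0.65), and the replication factor Pclaf (-0.78, -1.07 to -0.49). Anxa2 (-0.40), Ly6c2 (-0.47), Penk (-0.43), Hopx (-0.37) and Tpi1 (-0.36) were next. Beside Ifit3b, the rises were in H2-Aa (1.55), H2-Ab1 (1.45) and H2-Eb1 (0.74), whose UMIs lay in few cells, and in Fah (0.81), Filip1l (0.75), Ifit3 (0.63) and Gapdh (0.53). In mix 49.4% of the H2-Aa UMIs of members lay in 1 cell. Gzmb (0.02), Foxp3 (0.02), Icos (-0.01), Lag3 (-0.01) and Tigit (-0.04) had intervals that include 0.

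From mix to homo, the 8 lowest by the same rule were H2-Aa (-3.50), H2-Ab1 (-2.95), Ifit3b (-2.50), Penk (-2.44), Ifit3 (-1.71), Gapdh (-1.70), Isg15 (-1.56) and Eno1 (-1.53). The 8 highest were Gphn (1.98), Emb (1.79), Ccs (1.57), Gclm (1.54), Ltb4r1 (1.37), Ifitm2 (1.32), Stk10 (1.11) and the histone gene H2afz (1.07). Gphn stood at -0.19 without its highest cell.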

How the data were processed

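The authors deposited raw UMI counts per gene and barcode, 1 matrix per library. Per the file headers these come from Cell Ranger 7.1.0. Version 2.1.1 of that tool, Seurat 4.1.0 and the build mm39 stand in the submitters' processing notes. Nothing says how many animals a library holds.

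A barcode was kept from 500 genes and 1000 UMIs on if mitochondrial UMIs were below 10%, and members were gated on UMIs. Counts were summed per library and class and tested with edgeR 4.0.16 (quasi-likelihood test, TMM factors, its default filter on low counts, library as a block). The fit was tested on simulated data of 7776 genes: 14.9% of changes of 0.5 on the log2 scale were found, 82.1% of those of 1 and 97.0% of those of 2, with 7 false calls. For Klrg1 against Il10 cells (7637 genes) these were 8.96%, 44.8% and 97.0%, with 4 false calls. The simulation used the same preset spread for every gene and changed only genes above a minimum mean of UMIs per profile. Its shares thus do not cover genes with fewer UMIs, among them Tcf7, Id3 and Bach2. Both classes come from the same libraries, which is where the pairing comes from. Summed UMIs were 2517298, 2437008 and 308337 in members of PBS, mix and homo and 865204, 995162 and 169827 in the others. PCR duplicates were collapsed by UMI, and intervals at the 95% level cover counting error only.

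The members and the 21 gene lists were chosen with earlier results of these data known. The text names the 15 genes with the largest rise and the 15 with the largest fall among calls shared by all libraries, 8 each way for the subsets and between libraries, a fixed set of regulatory T cell genes, and up to 4 genes of each list. This rule leaves out sex-linked, haemoglobin, mitochondrial and ribosomal protein genes, antigen receptor genes and unnamed gene models. A few genes that it names are not reported here. Scrublet's own threshold called 1219, 1 and 0 doublets and was not used. As an alternative the 803, 527 and 485 barcodes of highest score were left out, which held 10, 4 and 0 members. Other alternatives changed the tool, filters, depth, gates, block and libraries. For the match in depth, each other Foxp3 cell took the nearest member, since members outnumber them.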

Additional observations from a re-analysis of the deposited data

Results flagged for a closer look

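Only genes named by rule for their ratio between 2 libraries in members were considered here. Of these, 6 had a ratio of opposite sign in members and in Foxp3 cells without Klrg1 and Il10. Their intervals for counting error left out 0 in both classes. The count thus gives no share over all genes with a ratio. The differences between the classes were not tested, since each library is 1 sample. From PBS to mix, Ccl4 was at -0.78 on the log2 scale in members and at 0.64 in the other Foxp3 cells, and Hopx at -0.37 and 0.51. In mix 1 cell held 42.7% of the Ccl4 UMIs of those other cells. The MHC class II genes H2-Aa (1.55 and -3.13), H2-Ab1 (1.45 and -2.85) and H2-Eb1 (0.74 and -0.81) differed in the same way, on UMIs of few cells. From mix to homo, Stk10 was at 1.11 in members and -0.71 in the others.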

How the results depend on the processing

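At 2000 UMIs per cell, gated anew, the share of Foxp3 cells with Klrg1 or Il10 was 59.5%, 57.1% and 54.1% in PBS, mix and homo. At 1000 UMIs it was 44.8%, 42.4% and 40.4%, and with at least 2 UMIs of the 2 genes 53.9%, 50.8% and 46.8%. Members were thus not the majority at 1000 UMIs in any library, nor in homo with at least 2 UMIs of the 2 genes. Among cells with a Cd4 UMI the share was 77.6% in PBS and 72.8% in mix. With CD8 genes allowed, members per CD3 cell were 2.70 times (PBS) and 3.13 times (mix) those of homo.

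Members had 96 genes higher and 67 lower than other Foxp3 cells. Without each library in turn there were 1 to 183 higher and 1 to 128 lower (35 and 37 without PBS, 1 and 1 without mix). DESeq2 gave 15 and 8, no filter 159 and 89, at least 2 UMIs of Klrg1 and Il10 168 and 95, Foxp3 at 2 or more UMIs 64 and 44, 2000 UMIs per cell 106 and 107, and cells with Cd4 27 and 18. With no replicate block, so without the pairing of classes by library, 6 were higher and 14 lower, and for Klrg1 against Il10 cells 8 and 5. That contrast, with 48 higher and 47 lower, gave 1 and 3 with DESeq2, 84 higher with no filter, and 7 and 21 at 2000 UMIs, with 14 of the 95 calls made again. It could not be fitted without a library. The direction of all 163 calls tested held in each alternative, except 2 of 149 at 2000 UMIs and 1 of 159 without myeloid UMIs. Mcm5 was at -0.21 at 2000 UMIs and H2-Eb1 at -0.042 without myeloid UMIs.

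From PBS to homo, 95 genes were higher and 85 lower at a minimum of 50 CPM, 10 and 17 at 200 CPM, 94 and 69 at 2000 UMIs per cell, 73 and 78 among cells with Cd4, and 18 and 54 without the top cell of each gene. From PBS to mix, 1 was higher at 200 CPM, 1 at 2000 UMIs, and 2 each without shared barcodes, with Cd4 and without myeloid UMIs, and 5 were lower at 50 CPM, 2 at 2000 UMIs and 2 with Cd4. From mix to homo, 74 and 87 passed at 50 CPM, 8 and 17 at 200 CPM, 94 and 79 at 2000 UMIs, 57 and 77 with Cd4, 33 were higher at Foxp3 of 2 or more, and 58 lower without top cells. Leaving out the top cell weighs more in homo, with 79 cells. With Cd4, without myeloid UMIs and without the top cell, Gphn from PBS to homo was -0.64, -0.40 and -0.23, Lars2 -0.49, -0.33 and -0.27, and Gphn from mix to homo -0.58, -0.40 and -0.19. The cause of these changes was not tested. Named genes changed sign 22, 12, 13, 15 and 10 times over the alternatives of the 5 comparisons. The order is members, subsets, homo to PBS, mix to PBS and homo to mix. Of these changes, 2 in members, 6 in homo to PBS and 3 in homo to mix were those of Mcm5, H2-Eb1, Gphn and Lars2 above. The rest were in genes that did not pass a threshold. Few homo cells limit every value of that library.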

Other observations

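T cell receptor variable genes and ribosomal protein genes were counted after their values were seen. Of 46 variable genes tested between Klrg1 and Il10 cells, 4 were higher and 5 lower in Klrg1 cells, against 1 and 2 of 43 between members and the other Foxp3 cells. Trav14-1 held 85 and 64 UMIs in Klrg1 cells of PBS and mix and 0 and 2 in Il10 cells. Of 81 ribosomal protein genes, 14 were higher in Klrg1 than in Il10 cells and 79 lay above 0, with a median of 0.20. Between members and the other Foxp3 cells 0 passed in either direction and 1 lay above 0, with a median of -0.19.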
